A study of Mus musculus with 6 samples.

Results

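The insulin-like growth factor (IGF) axis was read on 6 Affymetrix arrays as 10 genes: the ligands Igf1 and Igf2, the receptors Igf1r and Igf2r, and the binding proteins Igfbp2 to Igfbp7. Every probe set whose annotated symbol is 1 of these was taken, which gave 28 of the 45101 probe sets in the table, and each gene was read from its brightest probe set (by mean). All 10 genes were among the 18193 genes so measured. Of the 28 probe sets, 1 to 6 belonged to each gene, and 1 further probe set, annotated to both Airn and Igf2r, was left out. The arrays held RNA of carotid arteries of mice with a global knockout of IRF4 (IRF4 KO, 3 arrays) and of wild-type mice (WT, 3 arrays). All arteries of both genotypes had undergone a wire injury and were taken 14 days later, and each array pooled 3 to 5 vessels. IRF4 is an interferon regulatory factor, the mice lacked it in all tissues, and the sources used here give no age, sex or strain and do not say which part of the gene was removed. No uninjured artery was among the samples, so no value here describes the injury itself.

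IGF-1 and IGF-2 are secreted growth factors that act through the tyrosine kinase receptor IGF1R, which signals through insulin receptor substrates to PI3 kinase and AKT and promotes growth, migration and survival of vascular smooth muscle. IGF2R, the mannose 6-phosphate receptor, takes up IGF-2 and delivers it to lysosomes. The IGF binding proteins hold the ligands outside the cell, and proteases such as pregnancy-associated plasma protein A (PAPP-A) release them. In an injured artery the ligands and binding proteins can come from smooth muscle, fibroblasts, endothelium and macrophages.

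Values are deposited log2 intensities, on which a difference of 1 is a doubling of intensity, and changes are IRF4 KO minus WT on that scale. Brightness differs between probe sets for reasons other than transcript number, so levels are compared between arrays for 1 probe set and no order of the 10 genes by level is given. The table ran between 1.34 and 13.9, array medians lay between 3.94 and 4.12, and pairs of arrays correlated at 0.951 to 0.990 across probe sets. Arrays IRF4 KO 1 and WT 3 stood apart: their poly-A spike-in controls, added to the RNA before labelling, averaged 5.14 and 4.93, against 7.35 to 9.26 on the other 4. These are called the low spike-in arrays. The targeted gene was dim on all arrays: Irf4 read 3.57 ± 0.26 in IRF4 KO and 3.64 ± 0.26 in WT (SD, n = 3 each), below the median gene level of 4.89. The values of Irf4 therefore do not check the genotype labels.

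None of the 10 IGF axis genes differed between the genotypes beyond the spread between arrays. With limma, 0 of the 10 genes had an adjusted p under 0.05, where 0 of all 18193 genes (0%) did, and the smallest adjusted p was 0.999 among the 10 and 0.252 among all genes. At an unadjusted p under 0.05 there were 0 of the 10, against 1.49% of all genes. The genotypes overlapped in all 10, while 5.68% of all genes had genotypes that did not overlap. Values were higher in IRF4 KO for 7 of the 10 genes, against 49.7% of all genes, and the count was 5 after subtraction of the array medians and 6 after quantile normalization. Without WT 1 it was 4 and without IRF4 KO 1 it was 5. The median change was 0.041 for the 10 and -0.0015 for all genes, but -0.027 for the 10 without WT 1 and -0.040 without IRF4 KO 1. Over all arrays the median size of change was 0.19 for the 10 and 0.15 for all genes. What these arrays could show differed by gene: the 95% interval reached 0.49 log2 units to each side for Igf1r, the narrowest, and 2.44 for Igfbp2, the widest. Because whole arteries were measured, fewer cells of a type and less RNA per cell cannot be told apart in any value below.

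**Figure D1:**
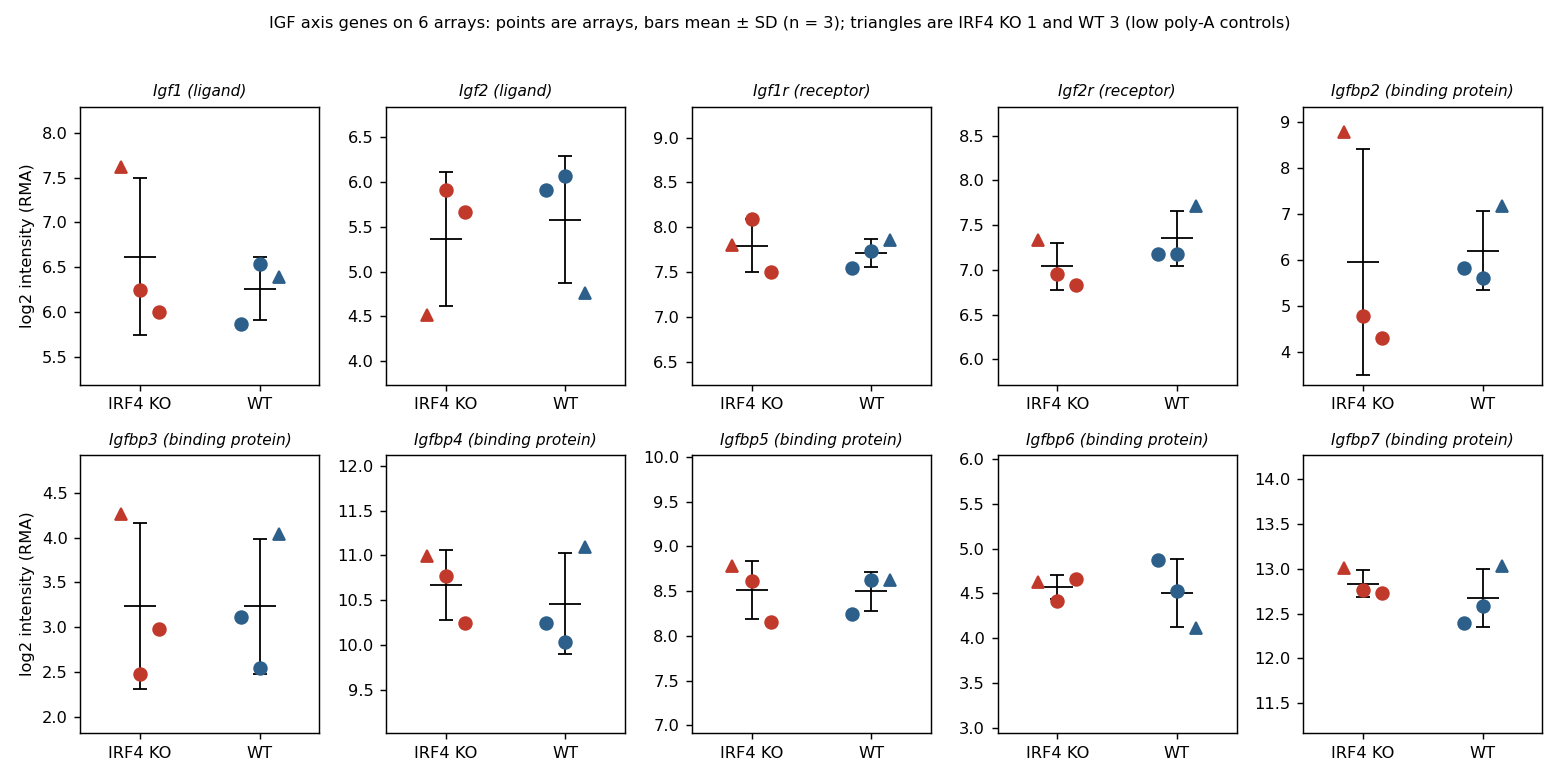
Log2 intensity of each IGF axis gene (vertical axes, a scale per panel) on the 3 IRF4 KO arrays and the 3 WT arrays, with mean ± SD; triangles mark IRF4 KO 1 and WT 3, the arrays with low spike-in controls. The genotypes overlap in all 10 panels, and the triangles lie above every other point for Igf2r, Igfbp2, Igfbp3, Igfbp4 and Igfbp7 and below every other point for Igf2.

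Promoter sequence was read beside these patterns. RefSeq windows of GRCm38.p6, 250 bases before to 50 after each annotated start, were found for all 10 genes, 14 windows in all. They were searched on both strands for 3 motifs: a pair of GAAA with any 2 bases between (the core of the interferon-stimulated response element, which IRF proteins bind), GGAA followed by any 2 bases and GAAA (the composite element that IRF4 binds with an ETS partner such as PU.1), and TATAAA, the TATA box. The windows of Igfbp2 (first start), Igfbp3 and Igfbp4 are shown because these genes were highest on the same arrays. Igf2r and Igfbp7 were highest on those arrays too, but their windows are not shown. For Igf2, 1 of its 4 windows is shown because it holds the only response element match. Lower case is sequence and capitals mark a match. The windows lie at chr1:72824230-72824529 on the plus strand (Igfbp2), chr11:7213874-7214173 on the minus strand (Igfbp3), chr11:99040994-99041293 on the plus strand (Igfbp4) and chr7:142658755-142659054 on the minus strand (Igf2), each written 5′ to 3′ in the direction of the gene.
Igfbp2: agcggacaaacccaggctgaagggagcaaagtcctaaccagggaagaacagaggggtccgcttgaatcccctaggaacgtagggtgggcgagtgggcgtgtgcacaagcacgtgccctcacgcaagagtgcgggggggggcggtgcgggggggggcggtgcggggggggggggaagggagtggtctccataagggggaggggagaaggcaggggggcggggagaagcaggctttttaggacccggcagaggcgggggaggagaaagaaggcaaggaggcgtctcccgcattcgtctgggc
Igfbp3: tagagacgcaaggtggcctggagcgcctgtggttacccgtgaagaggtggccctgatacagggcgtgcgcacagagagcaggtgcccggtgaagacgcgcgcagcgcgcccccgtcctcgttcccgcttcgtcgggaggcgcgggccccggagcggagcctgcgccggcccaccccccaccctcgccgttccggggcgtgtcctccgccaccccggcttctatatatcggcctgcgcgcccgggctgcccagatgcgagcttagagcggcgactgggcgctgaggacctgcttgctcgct
Igfbp4: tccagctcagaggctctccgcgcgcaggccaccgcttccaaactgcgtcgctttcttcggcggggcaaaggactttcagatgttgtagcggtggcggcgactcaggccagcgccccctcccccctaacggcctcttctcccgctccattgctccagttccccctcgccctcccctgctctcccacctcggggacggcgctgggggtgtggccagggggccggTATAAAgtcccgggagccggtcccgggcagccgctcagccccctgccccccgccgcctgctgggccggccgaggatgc
Igf2: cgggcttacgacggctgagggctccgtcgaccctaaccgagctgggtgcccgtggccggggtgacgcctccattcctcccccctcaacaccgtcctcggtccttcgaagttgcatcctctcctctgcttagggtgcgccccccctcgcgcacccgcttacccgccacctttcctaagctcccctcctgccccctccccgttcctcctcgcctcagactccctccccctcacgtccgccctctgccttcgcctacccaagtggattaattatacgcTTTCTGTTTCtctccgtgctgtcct

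The response element core occurred in 1 of the 14 windows, on the strand opposite to Igf2 and 25 bases past its start, against 3.44% of 32851 windows of all genes. The composite element occurred in 0 of the 14, against 2.72%. TATAAA occurred in 2 of the 14, against 13.6%, at 28 bases before the start of Igfbp4 and, on the opposite strand, at 148 bases before that of Igfbp6. The Igfbp2, Igfbp3 and Igfbp4 windows printed above had 67.0%, 71.7% and 71.3% G and C, against a median of 52.7% over all windows. This did not set them apart: Igf1r, which did not share their array pattern, had 76.0%, the highest of the 14. Igf2r and Igfbp7, which shared it, had 70.7% and 73.3%, and the second Igfbp2 window had 57.3%. The lowest, Igfbp6 and 1 window of Igf2, had 49.7%. A match is a string of letters in a window and no evidence of binding, and these genes were not chosen by sequence.

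Igf1 encodes the ligand made in the liver under growth hormone and locally by macrophages, fibroblasts and smooth muscle. It read 7.62, 6.24 and 6.0 on the IRF4 KO arrays, against 5.86, 6.54 and 6.39 on the WT arrays. The first IRF4 KO array was the highest of the 6, and the other IRF4 KO arrays lay within the WT range. The change was 0.36 (SE 0.41, 95% interval -0.59 to 1.31), or 1.28-fold. All 4 Igf1 probe sets were higher on average in IRF4 KO, by 0.067 to 0.41, also under both other scalings, and IRF4 KO 1 was the highest array in each of the 4. Without that array all 4 turned, and the gene's change was -0.14.

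Igf2, an imprinted gene expressed mainly from the paternal allele and most active before birth, read 4.51, 5.91 and 5.67 in IRF4 KO and 5.91, 6.07 and 4.77 in WT. The low spike-in arrays, 1 of each genotype, were the lowest of the 6, by a gap of 0.90 to the next array. The change was -0.22 (SE 0.45, 95% interval -1.24 to 0.81). The second Igf2 probe set was dim on every array, at 2.72, 2.91 and 3.10 in IRF4 KO and 2.81, 2.84 and 2.83 in WT, and did not show this pattern.

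Igf1r, which encodes the receptor that binds both ligands and signals, read 7.80, 8.09 and 7.50 in IRF4 KO, against 7.55, 7.73 and 7.86 in WT. Its change of 0.081 (SE 0.21, 95% interval -0.41 to 0.57) had the narrowest interval of the 10, and the low spike-in arrays lay within the range of the others. All 5 Igf1r probe sets had a higher mean in IRF4 KO, by 0.032 to 0.32, though 1 of the 5 turned after subtraction of the array medians. Without IRF4 KO 2, 3 of the 5 turned, and without WT 1, 3 did. Igf2r, the receptor that clears IGF-2, read 7.33, 6.96 and 6.83 in IRF4 KO and 7.18, 7.17 and 7.71 in WT. Its change of -0.31 (SE 0.23, 95% interval -0.85 to 0.22) had the smallest unadjusted p of the 10 genes, 0.215 in limma (adjusted p = 0.999). The second Igf2r probe set went the other way, with 7.75, 6.81 and 6.17 in IRF4 KO and 5.97, 6.47 and 7.53 in WT, a change of 0.25, so the probe sets of Igf2r disagreed in direction. On both of them IRF4 KO 1 and WT 3 were the highest arrays.

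Igfbp2 varied most. The gene encodes a secreted binding protein that also carries an integrin-binding motif, and it read 8.78, 4.78 and 4.29 in IRF4 KO and 5.82, 5.60 and 7.18 in WT on its 1 probe set. The IRF4 KO arrays thus spanned the whole range, with the first above every WT array and the other pair below every WT array. The range of 4.49 was exceeded by 0.187% of all genes. Over all arrays the mean was 5.95 ± 2.46 in IRF4 KO and 6.20 ± 0.86 in WT (SD, n = 3 each), and the change was -0.25 (SE 1.06, 95% interval -2.69 to 2.19). Without IRF4 KO 1 the change was -1.67, and without IRF4 KO 3 it was 0.58.

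Igfbp3 encodes the main carrier of IGFs in serum, where it forms a complex with a ligand and the acid-labile subunit. Its brighter probe set read 4.26, 2.47 and 2.98 in IRF4 KO and 3.11, 2.54 and 4.04 in WT, below the median gene level on every array. The second read 5.24, 2.04 and 2.23 in IRF4 KO and 2.23, 1.89 and 5.36 in WT. On both, IRF4 KO 1 and WT 3 were the highest arrays, and on the second they lay above all others, which read near the lower end of the table, so the size of that gap is not given. The means of the genotypes were within 0.01 of each other on both probe sets, and the gene's change was 0.0068 (SE 0.51, 95% interval -1.16 to 1.17).

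Igfbp4, whose product inhibits IGF action until PAPP-A cleaves it, read 11.00, 10.77 and 10.24 in IRF4 KO and 10.25, 10.04 and 11.10 in WT. Its change was 0.21 (SE 0.32, 95% interval -0.53 to 0.95). All 6 Igfbp4 probe sets had a higher mean in IRF4 KO under all 3 scalings, by 0.21 to 0.42 on the deposited scale. Without IRF4 KO 1, 3 of the 6 turned and their changes ran between -0.077 and 0.11. They report the same gene and are not independent. The dimmest of them was the single probe set of the 28 whose genotypes did not overlap, with 5.81, 4.98 and 5.01 in IRF4 KO and 4.83, 4.85 and 4.96 in WT. Among all probe sets 2.77% had every IRF4 KO array above every WT array, and the gap here was small beside the height of IRF4 KO 1.

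The remaining binding proteins varied less. Igfbp5, whose product binds extracellular matrix, read 8.78, 8.61 and 8.16 in IRF4 KO and 8.25, 8.62 and 8.62 in WT, a change of 0.016 (SE 0.23, 95% interval -0.51 to 0.54). Igfbp6, which prefers IGF-2 over IGF-1, read 4.63, 4.41 and 4.66 in IRF4 KO and 4.87, 4.52 and 4.11 in WT, a change of 0.067 (SE 0.23, 95% interval -0.47 to 0.60). All 3 IRF4 KO arrays lay inside the WT range for Igfbp6, while for Igfbp5 1 lay above it, 1 inside it and 1 below it. Igfbp6 lay below the median gene level on every array. Igfbp7, a relative with low affinity for IGFs that is abundant in vessel walls, read 13.01, 12.76 and 12.74 in IRF4 KO and 12.40, 12.59 and 13.03 in WT. Its change was 0.16 (SE 0.22, 95% interval -0.34 to 0.67), and its other probe sets had changes of -0.059 and -0.18.

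**Figure D2:**
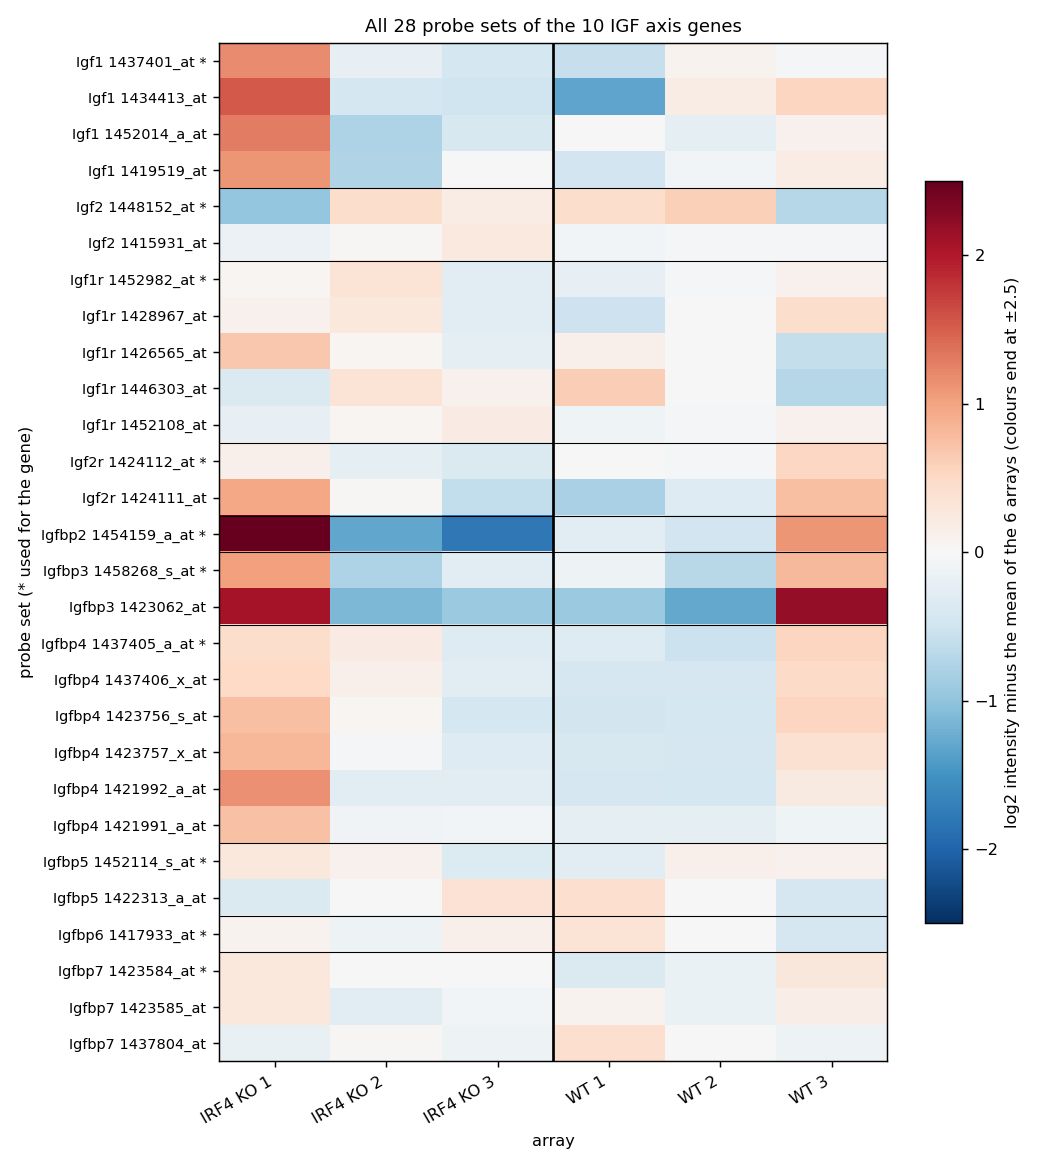
All 28 probe sets (rows, by gene, the 1 used for the gene starred) on the 6 arrays (columns, IRF4 KO left of the line and WT right of it), coloured by log2 intensity minus the probe set's mean. The IRF4 KO 1 and WT 3 columns both lie above the rest for Igfbp2, both Igfbp3 rows, both Igf2r rows and 5 of the 6 Igfbp4 rows. They do so too for 3 of the 4 Igf1 rows and 2 of the 3 Igfbp7 rows. Both lie below the rest for 1 row each of Igf2, Igf1r, Igfbp5 and Igfbp7. All 4 Igf1 rows are highest on IRF4 KO 1.

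Across the 28 probe sets, 0 had an adjusted p under 0.05 in the limma fit over all 34945 probe sets (0% of them), and 0 of the 28 had an unadjusted p under 0.05. The mean was higher in IRF4 KO for 22 of the 28, against 51.2% of all probe sets. That number was 18 after subtraction of the array medians and 23 after quantile normalization, but 13 without IRF4 KO 1, 15 without WT 1 and 14 over the 4 arrays with high spike-in controls. The 28 belong to 10 genes, and Igf1, Igf1r and Igfbp4 together supplied 15 of the 22. Array IRF4 KO 1 was the highest of the 6 on 15 of the 28 probe sets, where it was on 17.4% of all probe sets.

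Several of these genes divided the arrays across the genotypes. IRF4 KO 1 and WT 3 both lay above the other 4 arrays for 5 of the 10 genes, Igf2r, Igfbp2, Igfbp3, Igfbp4 and Igfbp7, where 17.4% of all genes did so. Both lay below the others for 1, Igf2, against 19.8% of all genes. By probe set the numbers were 15 of 28 above, against 14.9% of all probe sets, and 4 of 28 below, against 19.7%. The low spike-in arrays averaged 7.98 for Igfbp2, against 5.12 on the other 4, and 4.64 for Igf2, against 5.89. Samples were not regrouped by these genes: the arrays were set apart by their spike-in controls. Both the members and these arrays were chosen with earlier results of these data known, so the counts describe the pattern and do not test it.

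Within the 2 spike-in sets the genotype difference took opposite signs in every IGF axis gene except Igf2 and Igf2r, and it was widest apart for Igfbp2. For several genes 1 of the differences was small. IRF4 KO 1 minus WT 3 was -0.064 for Igf1r, -0.099 for Igfbp4 and -0.023 for Igfbp7. The mean of IRF4 KO 2 and 3 minus that of WT 1 and 2 was -0.054 for Igfbp5. The share of all genes with opposite signs was not counted, so these signs are not a trait of the IGF axis. For Igfbp2, IRF4 KO 1 exceeded WT 3 by 1.60, while IRF4 KO 2 and 3 averaged 1.18 below WT 1 and 2 (a difference of -1.18). A limma fit of the 4 arrays with high spike-in controls gave an unadjusted p of 8.51e-04 and an adjusted p of 0.352 for Igfbp2 (SE 0.28). In the limma fit of those arrays over all probe sets, the adjusted p of its 1 probe set was 0.74. The difference between the sets for Igfbp2, tested in limma as an interaction, was 2.78 (SE 0.48, unadjusted p = 5.13e-05, adjusted p = 0.0584). The low set holds 1 array per genotype and so has no spread of its own. The error comes from the other 4 arrays, drawn by limma towards the error of all genes, and is assumed to hold for the low set. The interaction was added after these opposite signs were seen. It missed the threshold, and by a wider margin in the fit over all probe sets. For Igf1, IRF4 KO 1 exceeded WT 3 by 1.23 and the other arrays differed by -0.080, an interaction of 1.31 (SE 0.51) with a limma unadjusted p of 0.0214 and an adjusted p of 0.99998. These were the 2 of 10 genes with an unadjusted interaction p under 0.05, against 3.33% of all genes. After adjustment 0 of the 10 passed, against 0.0824% of all genes. In the 4 arrays 0 of the 10 passed after adjustment (0.0275% of all genes) and 1 of the 10, Igfbp2, before it (3.88%). Changes over those 4 arrays ran between -1.18 for Igfbp2 and 0.36 for Igfbp4, and 3 of the 10 genes had a higher mean in IRF4 KO. With the spike-in set as a block in the fit of all arrays, 0 of the 10 passed after adjustment (0%) or before it (3.68%).

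**Figure D3:**
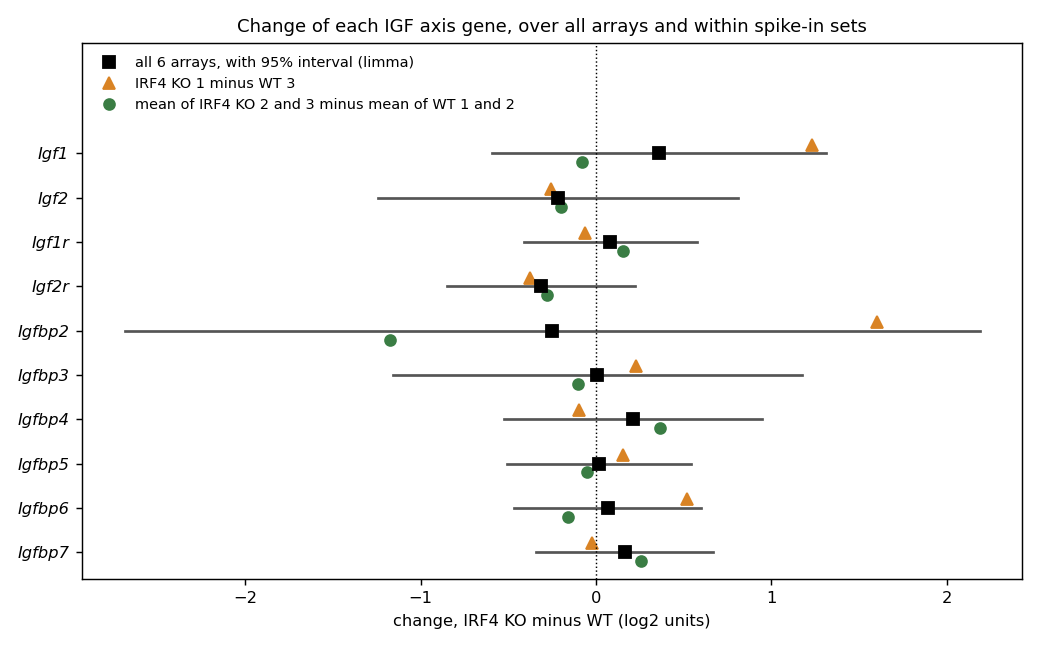
Change of each gene, IRF4 KO minus WT in log2 units (horizontal axis), over all 6 arrays with the 95% limma interval (squares), for IRF4 KO 1 minus WT 3 (triangles) and for IRF4 KO 2 and 3 minus WT 1 and 2 (circles). All 10 intervals include 0. The triangle and circle lie on opposite sides of 0 for every gene except Igf2 and Igf2r, widest apart for Igfbp2, at 1.60 and -1.18. For Igf1r, Igfbp4, Igfbp5 and Igfbp7 at least 1 of these points lies near 0.

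Markers of other cell types were high on the same arrays as several of these genes. The mean of 10 cartilage markers, each centred on its own mean, was 2.51, -1.33 and -1.07 in IRF4 KO and -1.02, -1.39 and 2.30 in WT, and 9 of the 10 had IRF4 KO 1 and WT 3 above the rest. Col2a1, which encodes the chief cartilage collagen, gave 12.16, 3.75 and 5.15 in IRF4 KO and 4.31, 4.04 and 12.07 in WT. For 10 macrophage markers the mean was 2.02, -1.01 and -0.82 in IRF4 KO and -0.48, -0.88 and 1.16 in WT, with 7 of 10 above. For 8 adventitial fibroblast markers it was 1.18, -0.52 and -0.42 in IRF4 KO and -0.51, -0.51 and 0.77 in WT, with 5 of 8 above. Among all genes 17.4% had both arrays above the rest. Both low spike-in arrays were thus high in the means of cartilage, macrophage and fibroblast markers. They were also high for Igf2r, Igfbp2, Igfbp3, Igfbp4 and Igfbp7, and low for Igf2.

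The mean of 8 endothelial markers was 0.45, -0.05 and -0.03 in IRF4 KO and -0.56, -0.01 and 0.20 in WT. IRF4 KO 1 and WT 3 both lay above the rest for 3 of these 8 and both below for 0. The mean of 8 smooth muscle markers was -0.13, 0.39 and 0.30 in IRF4 KO and -0.26, 0.03 and -0.33 in WT. Here both arrays lay above the rest for 0 and below for 2. Of these 8 smooth muscle markers 4 had a higher mean in IRF4 KO and 4 a lower one, with a median change of 0.078. After adjustment in limma 0 of the 8 passed. An unadjusted limma p under 0.05 was found for 3, all higher in IRF4 KO, against 1.49% of all genes. Of 5 adipocyte markers 1 had such a p, Pparg, which was lower in IRF4 KO by a change of -1.09 and is named here after its values were seen. The list means for adipocyte, skeletal muscle, peripheral nerve, T cell and B cell markers stayed between -0.35 and 0.45 on all arrays. Log intensities have no zero, so no marker can be called absent. The 3' to 5' signal difference of Gapdh, a measure of RNA or cDNA integrity, was 1.52, 2.24 and 1.78 in IRF4 KO and 3.35, 1.59 and 3.36 in WT, and thus high on WT 1 and WT 3. The part of cell makeup, spike-in amount and RNA quality in the IGF values was not tested.

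**Figure D4:**
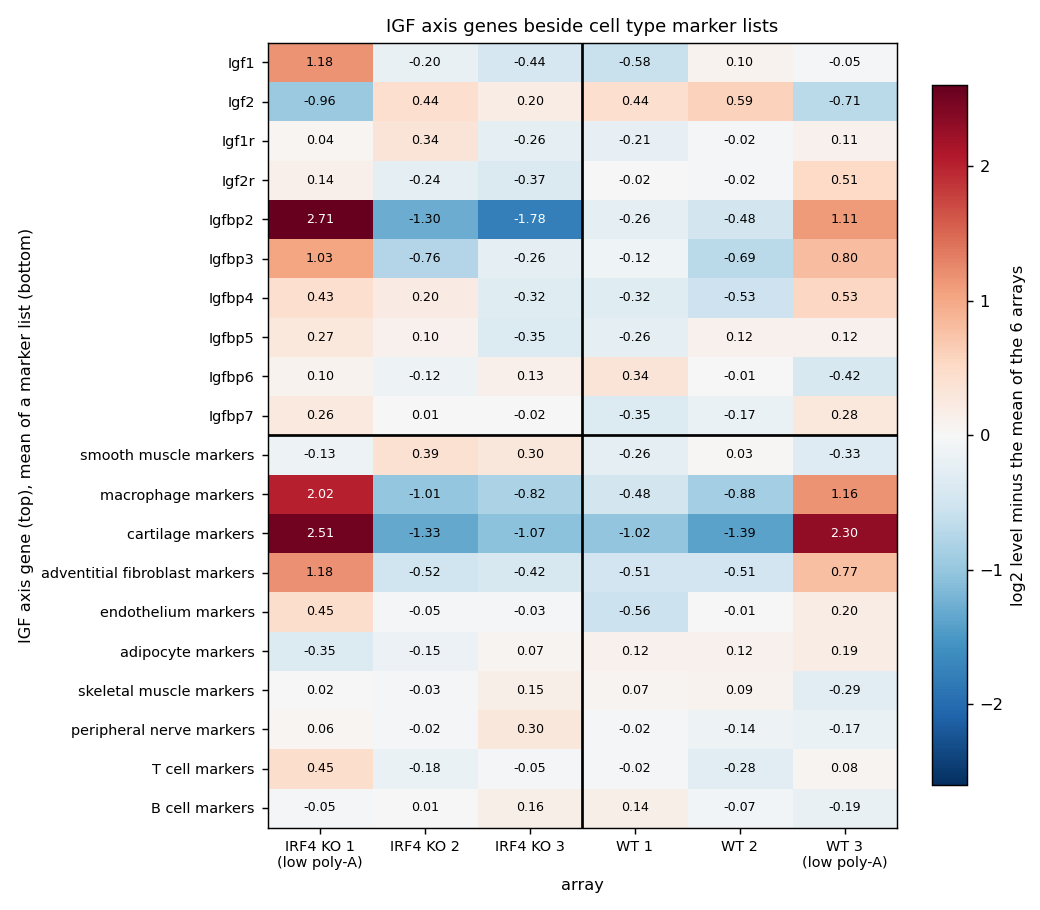
Log2 level minus the mean of the 6 arrays for the 10 IGF axis genes (rows above the line) and the mean of each of 10 cell type marker lists (rows below it), by array, with IRF4 KO left of the vertical line and WT right of it. On IRF4 KO 1 and WT 3 the values are 2.71 and 1.11 for Igfbp2, 2.51 and 2.30 for cartilage markers and 2.02 and 1.16 for macrophage markers.

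The genes most alike in pattern were read for Igf1, Igf2 and Igfbp2, the binding protein with the widest range, among 8897 brighter genes. Likeness was the mean absolute difference between centred log2 values over the 6 arrays, so it describes these arrays and carries no test. For Igf1 the closest were Hfe at 0.094, C1qtnf1 at 0.12 and Gmppb at 0.13, where the median gene stood at 0.43. Igf2 was closest to Dtna at 0.11, Rgs7 at 0.12 and Perp at 0.13, with a median of 0.65. Igfbp2 was closest to Timp1, an inhibitor of matrix metalloproteinases, at 0.31, to Pcolce, an enhancer of procollagen processing, at 0.36 and to Fcgr3, an Fc receptor of myeloid cells, at 0.38, with a median of 1.20. The nearest of the other 9 IGF axis genes to Igfbp2 was Igfbp3, at 0.73.

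The rest of the pathway was read from 4 lists, and 0 of their genes had a limma adjusted p under 0.05. Of 14 pericellular regulators, proteins that hold, cleave or release IGFs outside the cell, 13 had a higher mean in IRF4 KO and 1 a lower one, with a median change of 0.098. That count was 9 of 14 after subtraction of the array medians and 11 after quantile normalization. Of the 14, 9 were dim, with a mean over the arrays below the median gene level. Pappa, which encodes the protease that cleaves IGFBP-4, read 3.84, 3.50 and 4.08 in IRF4 KO and 3.09, 3.28 and 3.62 in WT, a change of 0.48 (SE 0.23). The IRF4 KO array with the lowest Pappa value lay below the highest WT array. Adam12, a metalloprotease that can cleave binding proteins, Ctsd, a lysosomal protease, and Stc2, an inhibitor of PAPP-A, had changes of 0.34, 0.29 and 0.23, with genotypes that overlapped. The other probe sets of Pappa had changes of -0.081 and 0.20, and those of Stc2 went the other way, at -0.12 and -0.36.

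Of 19 measured genes of IGF and insulin receptor signalling (22 listed), 9 were higher and 10 lower in IRF4 KO, with a median change of -0.033, and 6 were higher after subtraction of the array medians. Insr, the insulin receptor, which pairs with IGF1R in hybrid receptors, read 6.82, 7.16 and 6.69 in IRF4 KO and 7.65, 7.48 and 7.33 in WT. Every IRF4 KO array was below every WT array, and 5.68% of all genes had genotypes that did not overlap. Its change was -0.60 (SE 0.20) with a limma unadjusted p of 0.0178 and an adjusted p of 0.999, and it was the only 1 of the 51 measured genes of the 4 lists with an unadjusted p under 0.05, where 1.49% of all genes had one. The 2 other Insr probe sets, both dimmer, had changes of -0.088 and -0.13. The transcription factor gene Foxo3, held out of the nucleus by AKT, had a change of -0.40 (SE 0.30), Pik3r1, a regulatory subunit of PI3 kinase, -0.32 (SE 0.28), and Tsc2, an inhibitor of mTOR signalling, 0.29 (SE 0.21). The genotypes overlapped in each of these 3. Other probe sets disagreed in direction for Foxo3 (-0.028 and 0.23) and for Pik3r1 (-0.48, 0.31 and 0.60).

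In the growth hormone arm, which drives Igf1 in liver, 3 of 7 genes were higher and 4 lower, with a median change of -0.14. Cish, a feedback inhibitor, read 5.76, 5.81 and 5.80 in IRF4 KO and 5.61, 5.35 and 5.70 in WT, so that the genotypes did not overlap by a small gap, with a change of 0.24 (SE 0.18). The kinase gene Jak2 had a change of -0.21, the feedback inhibitor Socs2 of 0.16 and the transcription factor gene Stat5a of 0.15. Of 11 measured imprinted growth genes and Igf2 mRNA binding proteins (13 listed), 6 were higher and 5 lower, with changes between -1.14 and 0.25. Meg3, an imprinted noncoding RNA, read 8.55, 8.68 and 8.11 in IRF4 KO and 9.50, 8.36 and 10.91 in WT. Its change of -1.14 (SE 0.55) came with overlapping genotypes, and WT 3 was the highest array. The imprinted genes Peg3 and Ndn had changes of -0.53 (SE 0.38) and -0.49 (SE 0.23), and Gnas, which encodes the stimulatory G protein subunit, of 0.25 (SE 0.20). Of the 4, only Ndn had genotypes that did not overlap, against 5.68% of all genes. This held on the probe set used and on another Ndn probe set, with a change of -0.56. Other probe sets ran between -0.94 and 0.30 for Meg3, -0.12 and 0.015 for Peg3, -0.56 and 0.35 for Ndn, and -0.091 and 0.25 for Gnas. IRF4 KO 1 and WT 3 both lay above the rest for 8 of 19 receptor signalling genes and 3 of 7 genes of the growth hormone arm. They did so for 4 of 11 genes of the imprinted list and 3 of 14 pericellular regulators, against 17.4% of all genes. In the same order, both lay below the rest for 0, 0, 2 and 3 genes, against 19.8% of all genes.

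**Figure D5:**
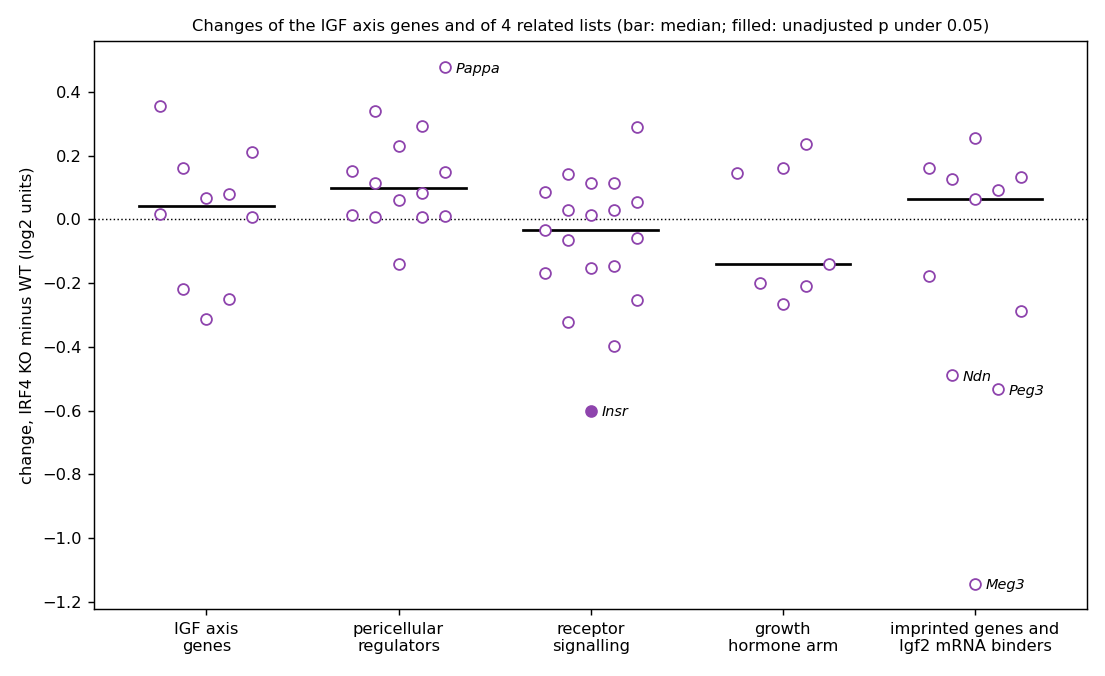
Change of each gene, IRF4 KO minus WT in log2 units (vertical axis), for the 10 IGF axis genes and the 4 related lists, with the median of each as a bar. The filled point is Insr, at -0.60, with an unadjusted p under 0.05, and the lowest is Meg3, at -1.14.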

How the data were processed

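Gene expression was measured on 6 arrays, 3 per genotype, grouped by the labelled genotype. The deposited values are log2 intensities per probe set, which the authors made with Affymetrix Expression Console and RMA (background correction, normalization and summary of probes), per the submitters' processing notes; no version is given there. RMA draws dim probe sets together, so their changes are understated. Probe sets were named from the platform annotation: 34958 had 1 symbol, 932 several and 9211 none. Of 64 controls, 13 carried a symbol and were left out, which left 34945. The Entrez numbers of 34741 matched RefSeq, and 0 symbols changed. Each gene was read from its brightest probe set by mean (9010 of 18193 genes had several).

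The genotypes were compared in limma 3.58.1 under R 4.3.3 (lmFit, eBayes without trend, two-sided), with Benjamini-Hochberg adjustment over all genes or all probe sets and a threshold of 0.05. Only rows of the IGF axis and related lists are printed. The members, lists and low spike-in arrays were chosen with earlier results of these data known. The genes named were all 10 members with every probe set, Irf4, the 4 genes with the smallest unadjusted p of each related list, and the 3 genes most alike in pattern for 3 members. Marker genes given as examples were chosen after their values were seen. On simulated data for this comparison over 18193 genes, the gene fit found 11% of genes shifted by 1 log2 unit and 70% of genes shifted by 2, with 1 unchanged gene called. Only genes with a mean above the median were shifted, so these rates do not cover Igfbp3 and Igfbp6. The noise was drawn independently for each gene and array, without the split of IRF4 KO 1 and WT 3 from the other arrays. The labels call the arrays biological replicates, and their number limits the precision. The interaction test was added after seeing the data, as were the counts of directions under other scalings. The settings varied were a replicate block, averaging of a gene's probe sets, a filter on dim genes, median subtraction, quantile normalization, a robust trend, array weights, a spike-in block, leaving out both low spike-in arrays, leaving out each array, and other thresholds.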

Additional observations from a re-analysis of the deposited data

How the results depend on the processing

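No IGF axis gene or probe set passed an adjusted p under 0.05 in any setting tried, while all genes gave 0 calls in the limma fit, 66 with array weights (whose estimation stopped before converging), 5 in the 4 arrays with high spike-in controls, 15 for the interaction and 271 at an unadjusted p under 0.05. All probe sets gave 65, 6 and 640 calls in the same settings (the interaction apart), and 0 to 4 with 1 array left out (4 without IRF4 KO 1). Replicate numbers did not pair the arrays (correlations of deviations -0.52, 0.37 and -0.62 for numbers 1, 2 and 3); the replicate block gave 0 calls over all genes and 128 at an unadjusted p under 0.05. Of 148 combinations of gene and setting, 28 turned the sign of a change, with the cause not tested. Under array weights the changes were -0.19 for Igf1, 0.011 for Igf2, -0.30 for Igfbp3 and -0.089 for Igfbp6. In the 4 arrays they were -0.080 for Igf1, -0.10 for Igfbp3, -0.054 for Igfbp5 and -0.16 for Igfbp6. Median subtraction gave -0.028 for Igfbp3 and -0.019 for Igfbp5, quantile normalization -0.032 for Igfbp3, and the mean of probe sets -0.027 for Igfbp7. With each array left out in turn, changes ran from -0.14 to 0.67 for Igf1, -0.63 to 0.21 for Igf2, -0.066 to 0.23 for Igf1r, -1.67 to 0.58 for Igfbp2, -0.51 to 0.41 for Igfbp3, -0.0019 to 0.53 for Igfbp4, -0.12 to 0.20 for Igfbp5 and -0.13 to 0.25 for Igfbp6. They kept their sign for Igf2r (-0.46 to -0.14) and Igfbp7 (0.026 to 0.34). Of 388 combinations of probe set and setting, 65 turned the sign of a change, and 384 moved by under 1 SD. The filter on dim genes removed Igfbp3 and Igfbp6. Changes of dim genes such as these are limited by signal over background.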
